A study of Mus musculus with 6 samples.

Results

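The melanin pigment genes described here are 10 genes that make, shape or control melanin-bearing organelles. They are *Tyr*, *Tyrp1*, *Dct*, *Pmel*, *Mlana*, *Slc45a2*, *Oca2*, *Slc24a5*, *Mitf* and *Gpnmb*, listed by symbol and matched to 10 of the 55421 genes of the count table through their Ensembl identifiers. Their RNA was measured in whole retinas of 2-month-old mice. The 3 control retinas (YR612, YR613 and YR615) came from *Yap* flox/flox animals, and the 3 *Yap* cKO retinas (YR711, YR713 and YR714) from *Yap* flox/flox;*Rax-CreERT2* animals, in which Cre acts in Müller glia and in the non-pigmented epithelium of the ciliary body. Animals of both groups carried the floxed alleles and received 4-hydroxytamoxifen at postnatal days 10 and 14, so the groups differ in the Cre allele and the deletion it brings about, and no control with Cre but without floxed *Yap* was analysed here.

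Melanin is made inside melanosomes, which mature from pale organelles with protein fibrils into dark granules. Tyrosinase carries out the first and limiting oxidation of tyrosine, and its relatives TYRP1 and DCT act on later intermediates. In the eye, the retinal pigment epithelium behind the photoreceptors, the pigmented epithelia of the ciliary body and iris, and the melanocytes of the choroid and iris hold melanosomes, while the neural retina does not make melanin. Loss of *Tyrp1* and *Gpnmb* function together causes the iris pigment disease of DBA/2J mice, an inherited glaucoma model.

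Of the 10 melanin pigment genes, 9 had a fitted level below that of control retinas in *Yap* cKO retinas. *Pmel*, which forms the melanosome fibrils, fell 3.72-fold, and it was the 1 gene of the 10 that met all criteria in edgeR's quasi-likelihood test. *Dct*, *Mlana* and *Tyrp1* had fitted levels 2.30-, 2.21- and 2.14-fold lower, with adjusted p-values from edgeR above 0.05. *Mitf*, the transcription factor that drives many of the other genes in pigment cells, had a log2 fold change of 0.05. The *Yap* cKO retinas differed widely among themselves, and YR711 held the lowest level of the 3 for 9 of the 10 genes. The call of *Pmel* was lost when YR612, YR615 or YR711 was left out.

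Between 24261799 and 35067068 fragments per retina were assigned to genes, and 16575 genes passed the filter on low counts, all 10 melanin pigment genes among them. *Yap1*, the deleted gene, stood at 9.48, 9.52 and 9.83 TPM in the control retinas and at 3.99, 3.76 and 3.94 TPM in the *Yap* cKO retinas. TPM, the share of transcripts after counts are divided by exonic length, allow levels of different genes to be compared. The defining retina markers were present in every retina, with 50441 to 57084 TPM summed over 11 genes. Log2 fold changes rose with gene length across the genes tested (Spearman's rho = 0.391, across genes, which are not independent replicates). A correction for this trend changed the call of none of the 10 genes.

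In control retinas *Dct* had the highest level of the 10 genes, at 29.4 ± 2.48 TPM (SD, n = 3), followed by *Pmel* at 24.0 ± 3.76, *Tyrp1* at 13.1 ± 1.18, *Gpnmb* at 11.3 ± 0.516 and *Slc24a5* at 8.44 ± 0.845 TPM. The values of each of these genes did not overlap with those of the next over the 3 control retinas. *Mitf* (5.47 ± 0.756 TPM), *Mlana* (4.52 ± 1.37), *Oca2* (3.25 ± 0.663) and *Tyr* (2.91 ± 0.0798) came next, and each overlapped with its neighbour in this order. *Slc45a2* was the lowest, at 0.662 ± 0.0935 TPM. In *Yap* cKO retinas *Dct* was again the highest (13.2 ± 7.18 TPM), but *Gpnmb*, *Pmel*, *Tyrp1*, *Slc24a5* and *Mitf* then lay between 7.45 and 5.89 TPM on average, and their ranges overlapped.

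**Figure D1:**
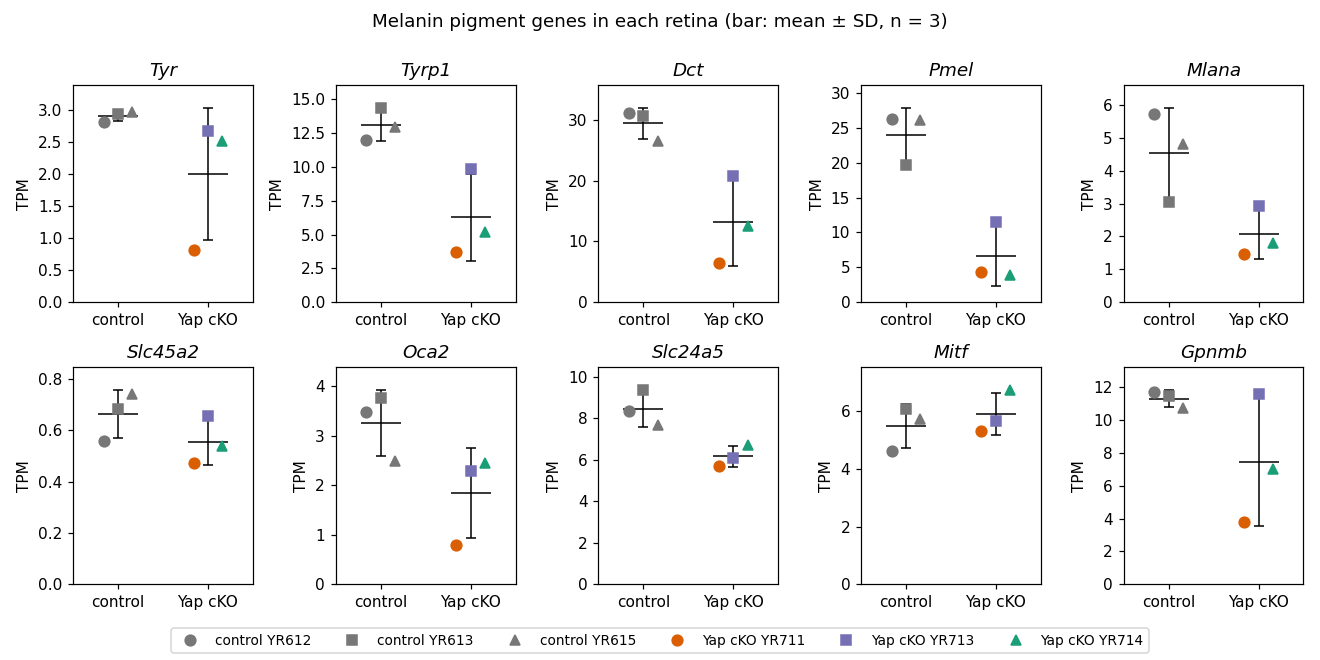
Level in TPM (y axis, from 0) of each melanin pigment gene in the 3 control and the 3 *Yap* cKO retinas, 1 point per retina, with the mean and SD of each group as a bar. *Pmel* lay between 19.7 and 26.3 TPM in control and between 3.96 and 11.5 TPM in *Yap* cKO retinas, and *Mitf* overlapped between the groups.

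The 3 enzymes of the tyrosinase family were examined first. *Tyr* (ENSMUSG00000004651, chromosome 7 of GRCm38, 87424771 to 87493512, minus strand) encodes tyrosinase. Its counts were 132, 143 and 162 in control YR612, YR613 and YR615, and 37, 165 and 122 in *Yap* cKO YR711, YR713 and YR714. On the TPM scale these were 2.81, 2.94 and 2.97 against 0.815, 2.67 and 2.51. All 3 *Yap* cKO values lay below the controls, but YR711 stood far below the other two, which reached 91.8% and 86.5% of the control mean. *Tyr* had a log2 fold change of -0.58 with a standard error (SE) of 0.33, and edgeR's quasi-likelihood test gave an adjusted p of 0.337. Without YR711 it was -0.22 (adjusted p = 0.453 by edgeR).

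*Tyrp1* (ENSMUSG00000005994, chromosome 4, 80834123 to 80851719, plus strand) encodes a relative of tyrosinase that acts late in the making of the dark pigment eumelanin. Its counts were 224, 278 and 281 in control retinas and 67, 243 and 101 in YR711, YR713 and YR714, or 12, 14.3 and 12.9 TPM against 3.71, 9.87 and 5.23 TPM. The groups did not overlap, and YR713 was the nearest to the controls. The log2 fold change of -1.10 (SE 0.28) had an adjusted p of 0.0904 by edgeR. Of the fits with 1 retina left out, that without YR713 passed (-1.59, adjusted p = 0.00972 by edgeR), and the other 5 did not, with adjusted p-values of 0.0643 to 0.286 and -0.84 as the smallest difference, without YR711.

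*Dct* (ENSMUSG00000022129, chromosome 14, 118012790 to 118052244, minus strand) encodes dopachrome tautomerase, the enzyme between the other two. It gave the most counts of the 10 genes in control retinas, 1209, 1235 and 1203, against 240, 1061 and 506 in YR711, YR713 and YR714. In TPM, 31.1, 30.6 and 26.6 in control retinas stood against 6.37, 20.7 and 12.6. The order of the *Yap* cKO retinas was that of *Tyrp1*, with YR711 lowest and YR713 highest, and no value reached the controls. With all retinas the log2 difference was -1.20 (SE 0.32, adjusted p = 0.0957 by edgeR), and -1.68 without YR713 (adjusted p = 0.0400 by edgeR). The other 5 fits with 1 retina left out gave adjusted p-values of 0.0572 to 0.303 by edgeR, with -0.88 as the smallest difference, without YR711. Within single retinas the ratio of *Tyrp1* to *Dct* TPM stayed between 0.386 and 0.487 in control and between 0.416 and 0.582 in *Yap* cKO retinas, so these genes were low together. The ratio of *Tyr* to *Dct* was 0.0905, 0.0960 and 0.112 in control retinas and 0.128, 0.129 and 0.20 in YR711, YR713 and YR714, without overlap. Neither ratio was planned, and neither was tested.

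Sequences before the transcript starts of these genes are shown because MITF, whose RNA was also measured, is known to bind E-boxes with the core CATGTG in the promoters of the tyrosinase family. RefSeq windows of GRCm38.p6 were at hand for 7 of the 10 genes (9 windows, 3 of them for *Mitf*), and the 250 bases before each start were searched on both strands for CATGTG, for its longer form TCATGTG, which contains it, for CACGTG and for TAATCC, the core bound by OTX2. Each stretch below reads 5′ to 3′ on the strand of its gene, and capitals mark CATGTG or TCATGTG or their reverse complements CACATG and CACATGA.
Tyr, chr7:87493513-87493553, minus strand: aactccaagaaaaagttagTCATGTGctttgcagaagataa
Tyrp1, chr4:80834147-80834192, plus strand: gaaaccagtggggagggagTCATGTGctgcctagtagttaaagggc
Dct, chr14:118052371-118052496, minus strand: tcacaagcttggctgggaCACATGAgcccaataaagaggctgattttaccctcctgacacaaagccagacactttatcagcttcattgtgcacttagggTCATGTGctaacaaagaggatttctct
Slc24a5, chr2:125068094-125068126, plus strand: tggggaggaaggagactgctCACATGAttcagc
Oca2, chr7:56239553-56239598, plus strand: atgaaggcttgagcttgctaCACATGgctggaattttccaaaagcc

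The longer form TCATGTG stood in 4 of the 9 windows, those of *Tyr*, *Tyrp1*, *Dct* and *Slc24a5*, and in 3.25% of all 32851 windows. It began 22 bases before the start of *Tyr* and 47 bases before that of *Tyrp1*, and *Dct* held 2 matches, which began 232 and 151 bases before its start. The RefSeq start of *Tyrp1*, at 80834213, lies downstream of the first base of the counted gene, at 80834123, so its match falls inside the counted gene. CATGTG was present in 5 of the 9 windows, that of *Oca2* being the fifth, against 12.3% of all windows. CACGTG was in none of the 9 windows and in 6.02% of all windows. TAATCC was in 1 window of *Mitf* and in that of *Dct*, against 6.25% of all windows. *Gpnmb* held no match to the 4 motifs in its window. These matches are a description of the letters and were not tested as binding sites.

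**Figure D2:**
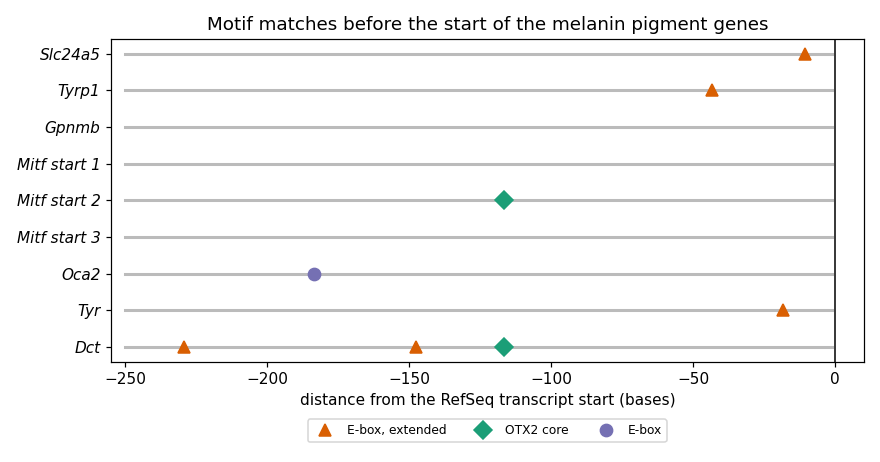
Motif matches in the 250 bases before the RefSeq transcript starts (x axis, bases from the start) of the 7 melanin pigment genes with a window, with 1 line per window and symbols for the kind of motif. The triangles are the longer E-box, present before *Tyr*, *Tyrp1*, *Dct* (2 matches) and *Slc24a5*.

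Next came the proteins that build the melanosome. *Pmel* (ENSMUSG00000025359, chromosome 10, 128704195 to 128720238, plus strand) encodes the protein of the fibrils on which melanin is laid down. Its counts were 397, 309 and 460 in control retinas, and 63, 230 and 62 in YR711, YR713 and YR714. In TPM these were 26.3, 19.7 and 26.1 in control and 4.30, 11.5 and 3.96 in *Yap* cKO retinas. Every *Yap* cKO retina lay below every control, and here YR714 was as low as YR711, at 16.5% and 17.9% of the control mean, with YR713 at 48.0%. *Pmel* fell from 24.0 ± 3.76 to 6.60 ± 4.28 TPM (SD, n = 3 each), which is -1.89 on the log2 scale of the fit (SE 0.35, adjusted p = 0.0347 by edgeR). The call did not hold in every set of retinas. Leaving out control YR612 gave an adjusted p of 0.160 by edgeR, leaving out YR615 gave 0.157 and leaving out YR711 gave 0.0717, while the log2 fold change stayed between -2.59 and -1.64 whichever retina was left out, the former without YR713. Exons of *Cdk2* and *Dgka* overlap *Pmel* on the opposite strand, and the counting used the strand.

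Against the enzymes, *Pmel* was low beyond what they showed in YR714. The ratio of *Pmel* to *Dct* TPM was 0.845, 0.644 and 0.983 in control retinas and 0.675, 0.558 and 0.315 in YR711, YR713 and YR714, where YR711 lay within the control range. The ratio of *Pmel* to *Tyr* was 9.33, 6.70 and 8.81 in control retinas and 5.28, 4.32 and 1.58 in the *Yap* cKO retinas, without overlap. These ratios were chosen after the values were seen and were not tested.

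*Mlana* (ENSMUSG00000024806, chromosome 19, 29697824 to 29708634, plus strand) encodes MART-1, a small membrane protein needed for the maturation of PMEL. It rested on few fragments, 40, 22 and 39 in control retinas and 10, 27 and 13 in YR711, YR713 and YR714. In TPM these were 5.74, 3.04 and 4.80 against 1.48, 2.94 and 1.80. The groups were separated by the narrow gap between control YR613 and *Yap* cKO YR713. The log2 fold change of -1.14 (SE 0.34) had an adjusted p of 0.122 by edgeR, which became 0.0330 without control YR613 and lay between 0.111 and 0.376 in the other 5 fits with 1 retina left out. *Gpnmb* (ENSMUSG00000029816, chromosome 6, 49036546 to 49070929, plus strand) encodes a membrane glycoprotein related to PMEL and is also expressed by macrophages. It had 502, 510 and 535 counts in control and 157, 656 and 312 in *Yap* cKO retinas, or 11.7, 11.4 and 10.7 TPM against 3.77, 11.6 and 7.01 TPM. YR713 was within the control range and the other two were below it. *Gpnmb* had a log2 fold change of -0.64 (SE 0.31, adjusted p = 0.258 by edgeR), which ranged from -1.11 without YR713 to -0.33 without YR711. None of the 14 macrophage and microglia markers passed edgeR's test on the adjusted p, 2 had an unadjusted p of at most 0.05, and their summed level in *Yap* cKO retinas was 93.4% to 111% of the control mean. The 3 with the largest log2 fold changes were *P2ry12* (0.51, adjusted p = 0.130 by edgeR), *Itgam* (0.37, adjusted p = 0.424 by edgeR) and *Cx3cr1* (0.31, adjusted p = 0.185 by edgeR).

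The transporters of the melanosome membrane set its ion content and pH. *Slc24a5* (ENSMUSG00000035183, chromosome 2, 125068124 to 125088677, plus strand) encodes a cation exchanger. Its counts were 128, 149 and 137 in control and 85, 123 and 107 in *Yap* cKO retinas, or 8.33, 9.33 and 7.65 TPM against 5.71, 6.07 and 6.72 TPM. It differed from the genes above in that the *Yap* cKO retinas lay close together, at 67.7%, 71.9% and 79.7% of the control mean. Its fitted log2 difference of -0.51 (SE 0.14) had an adjusted p of 0.107 by edgeR. *Slc24a5* overlaps exons of *Myef2* on the opposite strand.

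*Oca2* (ENSMUSG00000030450, chromosome 7, 56239760 to 56536518, plus strand) encodes an anion channel that raises melanosome pH. Its counts were 91, 102 and 76 in control and 20, 79 and 66 in *Yap* cKO retinas, or 3.48, 3.76 and 2.50 TPM against 0.790, 2.29 and 2.44 TPM. YR711 stood apart at 24.4% of the control mean, while YR714 lay just below control YR615. For *Oca2* the log2 fold change was -0.85 (SE 0.34, adjusted p = 0.20 by edgeR), and -0.51 without YR711 (adjusted p = 0.292 by edgeR). *Slc45a2* (ENSMUSG00000022243, chromosome 15, 11000721 to 11029233, plus strand), a transporter that also acts on melanosome pH, had only 11, 14 and 17 counts in control and 9, 17 and 11 in *Yap* cKO retinas. Its levels of 0.559, 0.685 and 0.742 TPM overlapped with 0.472, 0.655 and 0.540 TPM. With a log2 fold change of -0.29 (SE 0.29, adjusted p = 0.599 by edgeR), no difference was detectable at this depth.

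*Mitf* (ENSMUSG00000035158, chromosome 6, 97807052 to 98021349, plus strand) is used by pigment cells and, through other promoters, by other cell types, and the counts pool all its transcripts. Its counts were 189, 258 and 272 in control and 210, 305 and 284 in *Yap* cKO retinas, or 4.62, 6.08 and 5.71 TPM against 5.31, 5.66 and 6.71 TPM. The groups overlapped, and YR711, the lowest retina for the enzymes, reached 97.0% of the control mean. The log2 fold change of *Mitf* was 0.05 (SE 0.14, adjusted p = 0.846 by edgeR), and its sign turned without control YR612 (-0.03) and without YR714 (-0.070).

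**Figure D3:**
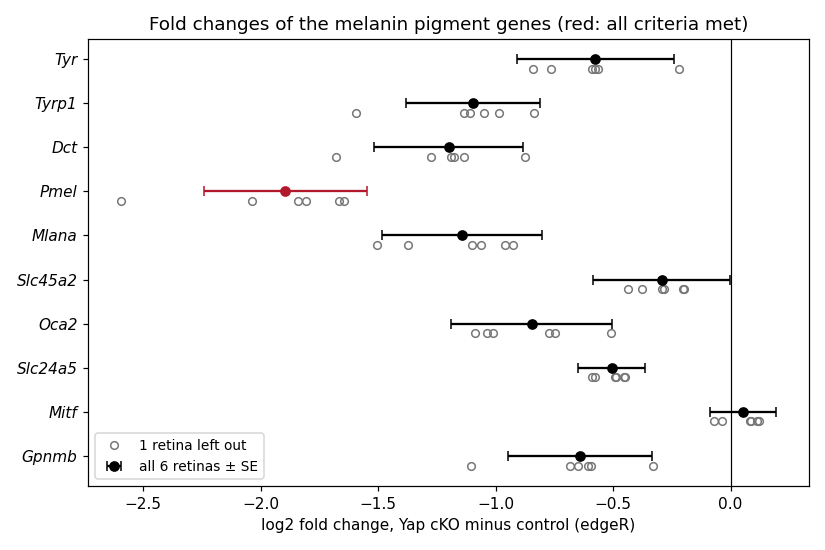
Log2 fold change of each melanin pigment gene (x axis, *Yap* cKO minus control), with the fit on all 6 retinas as filled points with the standard error and the fits with 1 retina left out as open points. *Pmel*, in red, stands at -1.89, and the fits with 1 retina left out stay below 0 for every gene but *Mitf*.

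As a group, 1 of the 10 genes was called lower and 0 higher by all criteria (adjusted p no higher than 0.05, 1.5-fold or more, and 5 TPM or more on average in either group), where 0.585% of all genes tested were called lower. On the adjusted p alone the count was also 1, against 0.989% of all genes. In 7 of the 10 genes every *Yap* cKO retina lay below every control retina, which was so for 9.04% of all genes. Fitted log2 fold changes were below 0 for 9 of the 10, against 49.7% of all genes, and their median was -0.74 over the 10 genes and 0.0017 over all genes tested. With other tests, *Dct*, *Pmel* and *Tyrp1* were called lower by edgeR's likelihood ratio test (1.01% of all genes) and *Pmel* and *Tyrp1* by DESeq2 (0.899% of all genes). The 10 genes are not independent of each other, since pigment cells use them together and they were measured in the same 6 retinas. They were also chosen with earlier results of these data known, so the shares over all genes are given for scale and are not a test. In whole dissected retinas, fewer pigmented cells in the sample, for whatever reason, and less RNA per pigmented cell cannot be told apart. How much pigmented tissue came along with each retina at dissection was not measured.

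The pigment epithelium gave a second readout of the same retinas. A list of 10 of its markers summed to 705, 770 and 733 TPM in control retinas and to 223, 401 and 751 TPM in YR711, YR713 and YR714, so YR714 stood within the control range. The 10 melanin pigment genes summed to 107, 102 and 101 TPM in control retinas and to 32.7, 73.9 and 49.5 TPM in YR711, YR713 and YR714. YR714 was thus at the control level for one list and at 48.0% of the control mean for the other, whereas YR711 was at 30.3% and 31.8%. *Rpe65*, the isomerase of the visual cycle, had 70.5, 77.3 and 77.5 TPM in control retinas and 14.3, 30.7 and 68.6 TPM in YR711, YR713 and YR714 (log2 fold change -1.03, SE 0.42, adjusted p = 0.201 by edgeR). *Rdh5*, a retinol dehydrogenase of the same cycle, had 34.3, 35.3 and 33.6 TPM against 8.36, 14.4 and 37.5 TPM (log2 fold change -0.83, SE 0.42, adjusted p = 0.285 by edgeR).

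**Figure D4:**
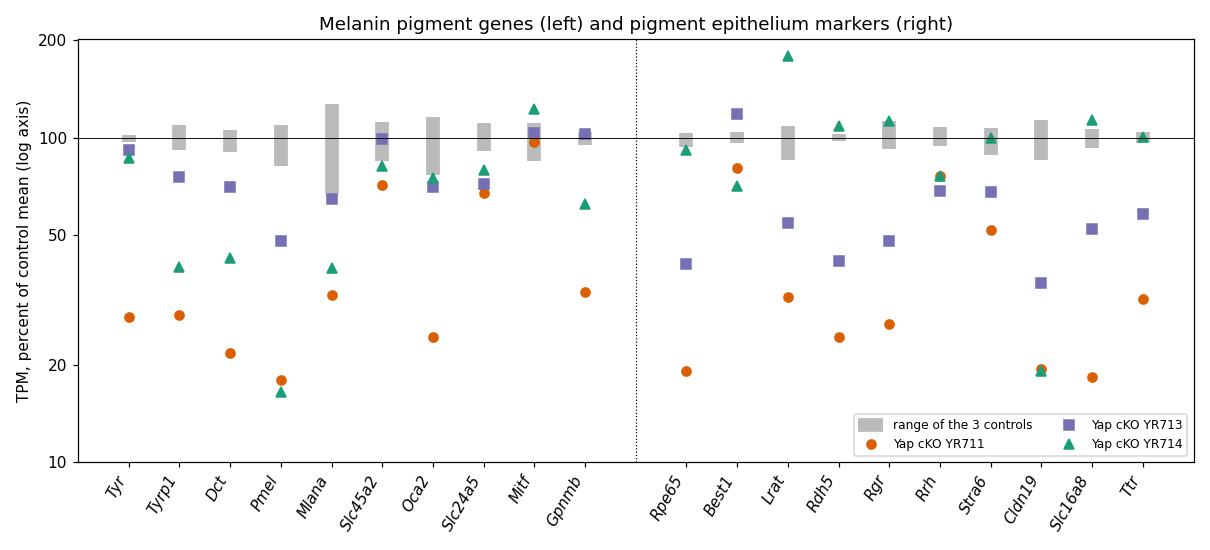
Level of each melanin pigment gene (left) and pigment epithelium marker (right) in the 3 *Yap* cKO retinas, as percent of the control mean of TPM (y axis, log scale), with the range of the 3 controls as grey bars. YR714 (green triangles) lay at 16.5% for *Pmel* and at 91.3% for *Rpe65*, and YR711 (orange points) at 17.9% and 19.1%.

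The ratio of the summed TPM of the 10 genes to that of the pigment epithelium markers was 0.151, 0.132 and 0.137 in control retinas and 0.147, 0.185 and 0.0659 in YR711, YR713 and YR714. YR711 kept the control ratio, YR713 lay above it and YR714 below it. The mean log2 ratio differed by -0.21 between the groups, from -2.84 ± 0.0994 in control to -3.04 ± 0.780 in *Yap* cKO retinas (SD, n = 3 each; exact two-sided permutation test, p = 0.9, where 3 against 3 cannot give less than 0.1). The sign of the difference rested on YR714, since it was 0.23 without that retina. The summed level of the markers moved with that of the melanin pigment genes in YR711 and YR713, and its part in their lower levels was not tested.

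Within the pigment epithelium list no gene met all criteria, and 2 of 10 had an adjusted p of at most 0.05, both lower. *Cldn19*, a claudin of tight junctions, stood at 3.45, 3.87 and 2.90 TPM in control and 0.661, 1.21 and 0.652 TPM in *Yap* cKO retinas (log2 fold change -2.03, SE 0.25, adjusted p = 0.00610 by edgeR), under the TPM minimum. *Rrh*, the opsin-like peropsin, stood at 14, 13.6 and 15.5 against 11, 9.84 and 10.9 TPM (log2 fold change -0.50, SE 0.10, adjusted p = 0.0472 by edgeR), under the fold minimum, and its adjusted p rose above 0.05 without YR612, YR615, YR711 or YR713 (0.0836 to 0.235). *Cldn19* shared with *Pmel* that YR711 and YR714 were equally low and YR713 in between. All 10 markers of the list lay below every control in YR711, 9 in YR713 and 4 in YR714, and of the 10 melanin pigment genes 9, 7 and 9 did. Of all genes tested, 27.8%, 25.5% and 20.2% lay below every control in these retinas.

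The wider melanosome machinery was measured through 28 genes of sorting and transport. 1 of the 28 was called lower and 0 were called higher. The log2 fold change was below 0 for 16 and above 0 for 12 of the 28, with a median of -0.08, and 9 had an unadjusted p of at most 0.05 by edgeR. The called gene was *Rab38*, a small GTPase that carries tyrosinase-family enzymes to melanosomes. It stood at 7.59, 6.48 and 5.53 TPM in control and at 3.28, 2.99 and 1.67 TPM in YR711, YR713 and YR714, with the groups apart and YR714 the lowest. *Rab38* thus had a log2 fold change of -1.35 (SE 0.25, adjusted p = 0.0356 by edgeR). It lost the call without YR612 (adjusted p = 0.160), YR615 (0.108), YR711 (0.0503) or YR713 (0.130, all by edgeR). *Gpr143*, the receptor of ocular albinism, and *Lyst*, which controls the size of lysosome-related organelles, were chosen for mention after their values were seen. *Gpr143* had 1.22, 1.32 and 1.24 TPM in control and 0.549, 0.230 and 0.807 TPM in *Yap* cKO retinas (log2 fold change -1.35, SE 0.40, adjusted p = 0.122 by edgeR). *Lyst* had 13.9, 21.5 and 13.4 TPM against 29.3, 28.0 and 20.7 TPM (log2 fold change 0.62, SE 0.18, adjusted p = 0.107 by edgeR). Most genes of the list also serve lysosomes in other cells, and its summed level in *Yap* cKO retinas was 105% to 106% of the control mean.

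Of 18 genes of pigment signalling and transcription, 15 were tested and none passed on the adjusted p, with 3 at an unadjusted p of at most 0.05 and a median log2 fold change of 0.03. The largest changes were those of *Edn3*, the ligand endothelin 3 (1.62, 1.17 and 0.981 TPM against 1.07, 0.754 and 0.498 TPM, adjusted p = 0.201 by edgeR), *Sox10*, a factor of neural crest derivatives (1.49, 1.20 and 1.71 against 0.513, 0.791 and 1.44 TPM, adjusted p = 0.257 by edgeR), and *Irf4* (0.464, 0.804 and 0.584 against 0.319, 0.492 and 0.537 TPM, adjusted p = 0.363 by edgeR). All 3 overlapped between the groups.

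**Figure D5:**
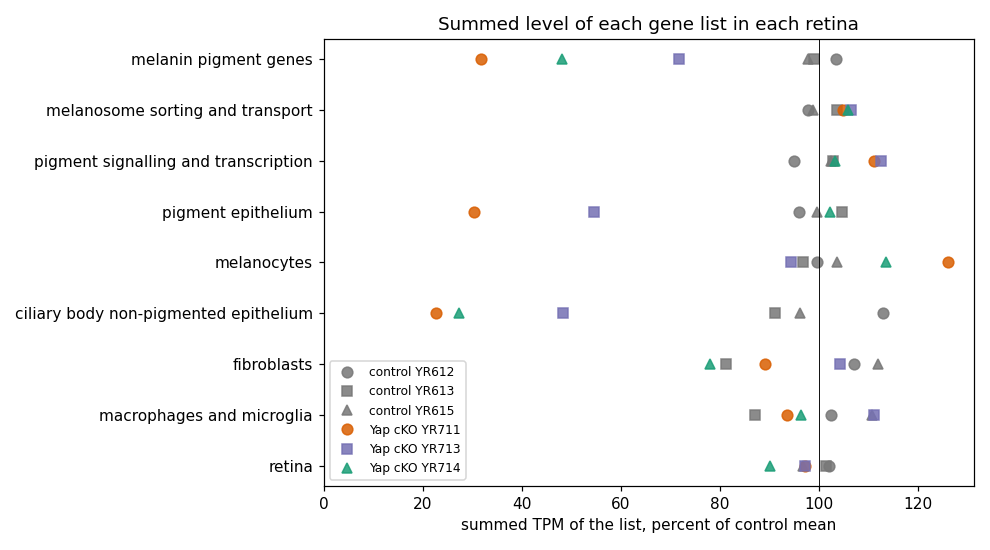
Summed TPM of each gene list in each retina, as percent of the mean of the 3 controls (x axis, from 0), with control retinas in grey and *Yap* cKO retinas in colour. The melanin pigment genes stood at 31.8%, 71.8% and 48.0% in YR711, YR713 and YR714, and the ciliary body list at 22.6%, 48.3% and 27.3%.

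Markers of other cells were measured beside these genes. In the ciliary body non-pigmented epithelium list, where Cre is active, *Optc* stood at 2.86, 8.39 and 2.44 TPM in YR711, YR713 and YR714 against 45.6 to 50.2 TPM in control retinas. *Optc*, which encodes opticin of the vitreous, thus had the order of *Pmel*, with YR713 the highest of the 3. The order was not particular to it, since *Otx1* of this list and *Col1a2* of the fibroblast list had it too. *Wfdc1* and *Msx1* of this list were instead lowest in YR711. The 4 genes found of that list summed to 68.1 to 84.4 TPM in control and 16.9 to 36.1 TPM in *Yap* cKO retinas, and 1 of the 3 tested was called lower. In control retinas *Optc* made up most of that sum, and *Wfdc1*, which gave most of the rest, overlapped between the groups (32.7, 21.4 and 22.1 TPM against 13.8, 27.1 and 17.7 TPM, adjusted p = 0.351 by edgeR). *Otx1* did not overlap (1.15, 0.727 and 0.888 TPM against 0.173, 0.466 and 0.135 TPM, log2 fold change -1.80, SE 0.41, adjusted p = 0.0671 by edgeR). *Msx1*, too low to be tested, did not overlap either, with 7, 8 and 19 counts against 1, 5 and 3. Of 5 melanocyte markers, 0 of the 4 tested passed at an adjusted or unadjusted p of 0.05 by edgeR (log2 fold change -0.74 and adjusted p = 0.257 for *Sox10*, 0.30 and 0.294 for *Mc1r*, -0.25 and 0.618 for *Erbb3*, 0.08 and 0.801 for *Kit*). *Mc1r* stood higher in every *Yap* cKO retina than in every control. The list summed to 94.4% to 126% of the control mean in *Yap* cKO retinas, and *Mc1r* and *Kit* made up most of that sum. The median of the 5 markers was 75.6%, 87.9% and 98.3% in YR711, YR713 and YR714. *Pax3*, too low to be tested, had 1, 1 and 0 counts in control and 0 in all *Yap* cKO retinas. Of 8 fibroblast markers, 1 of the 5 tested passed on the adjusted p, *Col1a2* (3.09, 3.11 and 4.37 against 0.794, 1.06 and 0.577 TPM, log2 fold change -2.16, SE 0.22, adjusted p = 0.00236 by edgeR), while *Col1a1* (log2 fold change 0.08) and *Mgp* (-0.07) had adjusted p-values of 0.910 and 0.844. The fibroblast list summed to 77.9% to 104% of the control mean in *Yap* cKO retinas, and *Mgp* made up most of that sum. The median of its 8 markers, those too low to be tested among them, was 59.8%, 70.1% and 67.7% in YR711, YR713 and YR714. Of 11 retina markers, 1 passed on the adjusted p, *Grm6* of ON bipolar cells, which was higher (log2 fold change 0.46, SE 0.08, adjusted p = 0.0249 by edgeR), under the fold minimum, and which did not pass without YR612, YR615, YR711 or YR713 (0.0539 to 0.131). *Rlbp1* (-0.36, adjusted p = 0.0540) and *Glul* (-0.21, adjusted p = 0.185), both high in Müller glia, did not pass in edgeR's test. *Slc1a3*, another Müller glia gene of the list, had a log2 fold change of 0.05 (adjusted p = 0.745 by edgeR). The part of the ciliary body, melanocyte, fibroblast and retina markers in the levels of the melanin pigment genes was not tested.

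The genes outside the 10 whose profile over the 6 retinas was nearest to the mean of *Tyr*, *Tyrp1* and *Dct* were sought among 15301 genes, by the root mean square difference of log2 CPM centred on the 6 retinas. They were *Fgf2os* (0.18), *Dio3os* (0.19), *Lad1* (0.20), *Aldh1a1* (0.23) and *Epha2* (0.23). *Aldh1a1*, an enzyme that makes retinoic acid, was the highest expressed of them, at 67.9, 62.3 and 65.1 TPM in control and 25.8, 50.7 and 39.2 TPM in YR711, YR713 and YR714 (log2 fold change -0.81, SE 0.20, adjusted p = 0.0826 by edgeR). *Fgf2os* had 5.15, 4.66 and 5.06 TPM in control and 1.52, 5.02 and 3.15 TPM in *Yap* cKO retinas. *Dio3os* had 7.47, 7.28 and 7.81 against 2.05, 4.64 and 4.78 TPM. None of the 5 had an adjusted p of at most 0.05 by edgeR (0.0826 to 0.303). Of the enzymes themselves, *Dct* was at 0.15, *Tyrp1* at 0.17 and *Tyr* at 0.25 from their mean, so *Tyr* lay farther from it than the 5 genes found. Among the other melanin pigment genes, *Gpnmb* was at 0.17, *Oca2* at 0.26, *Mlana* at 0.38, *Slc24a5* at 0.53, *Pmel* at 0.61 and *Mitf* at 0.73. *Gpnmb* was thus as close to the enzyme mean as the nearest gene found, and *Pmel* stood away through the larger size of its difference and its low level in YR714. The profile rests on 6 retinas that share their libraries and depth with all genes compared.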

How the data were processed

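Retinas were grouped by the labels (3 control, 3 *Yap* cKO). The authors aligned paired-end reads with STAR 2.7.3a and used featureCounts 1.6.2 to count exonic fragments of each gene (strand setting 2, Ensembl release 98, GRCm38, per the file headers). The deposited columns, 1 per retina, hold raw counts, beside each gene's exonic length, another deposited value, from which TPM were computed. Of 55421 identifiers, 55154 received a symbol. The paper's methods call the replicates independent and biological, and neither they nor the labels say whether each came from a separate animal.

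Tests used R 4.3.3 and edgeR 4.0.16: filterByExpr, TMM factors (0.986 to 1.02), the quasi-likelihood test and Benjamini-Hochberg adjustment over 16575 genes (common dispersion 0.0126). A standard error is the log2 fold change divided by the square root of F. Criteria were those of the study's methods (adjusted p of at most 0.05, fold change of at least 1.5, mean of at least 5 TPM in 1 of the groups). Log2 CPM used a prior count of 2. Alternatives were median-ratio factors, the likelihood ratio test, DESeq2 1.42.0, no filter, no TPM minimum, a loess correction for gene length (span 0.3) and each retina left out. The exact permutation test used scipy. Scripts were tested on simulated data.

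Named genes were all 10 melanin pigment genes, and from each other list (melanosome sorting and transport, pigment signalling and transcription, pigment epithelium, melanocytes, ciliary body non-pigmented epithelium, fibroblasts, macrophages and microglia, retina) the called genes or those with the largest changes, plus the 5 genes nearest in profile and *Yap1*. Outside this rule, *Gpr143*, *Lyst*, *Rrh*, *Ttr*, *Wfdc1*, *Otx1*, *Msx1*, *Kit*, *Pax3* and *Slc1a3* were named with their values known. The 10 genes and the lists were chosen with earlier results of these data known. *Asip* and *Cpamd8* had no match by symbol, and *Tfec* had no counts.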

Additional observations from a re-analysis of the deposited data

How the results depend on the processing

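The main count of 1 melanin pigment gene called (*Pmel*) became 3 by the likelihood ratio test (*Dct*, *Pmel*, *Tyrp1*), 2 by DESeq2 (*Pmel*, *Tyrp1*) and 4 without the filter on low counts (*Dct*, *Gpnmb*, *Pmel*, *Tyrp1*). On the adjusted p alone, 1 became 5, 2 and 7, while over all genes 247 became 1025, 892 and 1865. With 1 retina left out, both counts ranged from 0 to 3. They were 0 without YR612, YR615 or YR711, 2 without YR613 and 3 without YR713. Over all genes, 132 were called, against 291 by the likelihood ratio test, 263 by DESeq2, 369 without the filter and 38 to 516 with 1 retina left out (highest without YR613). The causes were not tested. Both counts stayed at 1 with median-ratio factors, with the length correction (*Pmel* -1.78, adjusted p = 0.0209) and without YR714, and the count called also without the TPM minimum. The direction held for 9 of the 10 genes under the alternatives compared, which for *Slc45a2* leave out DESeq2, where it had no adjusted p. *Mitf* turned to -0.03 without YR612 and to -0.070 without YR714 (range -0.070 to 0.12 with 1 retina left out). The alternatives for the ratio to pigment epithelium markers were added after the data were seen. Its log2 difference of -0.21 ranged from -0.51 to 0.23 with 1 retina left out, turning to 0.23 without YR714, and was -0.12 without *Ttr*, which held 63.4% of the summed TPM of the list in control retinas. The labels give no shared replicate numbers, batch, litter or sex, so no paired analysis was possible. Counts of 9 to 40 for *Slc45a2* and *Mlana* limit their precision.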
